A study of Mus musculus with 75 samples.

Results

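The genes of SR proteins, Tra2 proteins, hnRNP proteins and the kinases of the SRPK and CLK families were taken from RNA sequencing of mouse gastrocnemius, a calf muscle. Members were chosen by symbol alone (Srsf followed by a digit, Hnrnp, Srpk1 to Srpk3, Clk1 to Clk4, and Tra2), which found 39 of the 13856 genes in the table. They are 10 SR protein genes, 2 Tra2 genes, 7 kinase genes and 20 hnRNP genes. All animals were BALB/c mice, and 5 treatments were given to each sex. PBS mice had no tumour and received saline. C26 saline mice were injected on both sides with C26, a colon carcinoma cell line of the mouse, and received saline. The 5-fluorouracil, paclitaxel and cisplatin groups carried the same tumour and received the drug at 75% of its maximum tolerated dose from day 12, in 2 cycles with 2 injections per week. Every muscle was taken at day 25. Drug-treated mice without a tumour were not analysed here, so each drug was compared with C26 saline mice of its sex. There were 7 PBS and 7 C26 saline libraries of females, with 8, 7 and 6 for 5-fluorouracil, paclitaxel and cisplatin. There were 8 PBS and 8 C26 saline libraries of males, with 8, 6 and 8 for the drugs in that order. The labels do not state that each library is a separate animal, so the p-values reflect variation among libraries that may be technical.

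SR proteins bind exonic enhancers through RNA recognition motifs and recruit the spliceosome through domains rich in arginine and serine. The SRPK kinases phosphorylate these domains in the cytoplasm, which sends SR proteins into the nucleus, and the CLK kinases phosphorylate them in the nucleus, which releases them from nuclear speckles. hnRNP proteins coat nascent RNA and often act against SR proteins at the same exons, and skeletal muscle, with its long and heavily spliced sarcomere transcripts, depends on the balance between them.

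Several libraries stood apart in a way that touches these genes. In each library the deviations of non-member genes from their means were regressed on transcript GC content and log2 transcript length together. Only genes with a GC value and a mean log2 value of at least 1 were used. The coefficient on GC content was taken as the GC slope, in log2 units per standard deviation (5.78 percentage points) of GC content. The slope ran from -0.256 to 0.552, and 19 of 73 libraries lay above 0.1. These were 4 of 6 male paclitaxel, 4 of 8 male 5-fluorouracil, 2 of 8 male cisplatin and 2 of 8 male PBS libraries, but none of the 8 male C26 saline libraries. In females they were 2 PBS, 1 C26 saline, 2 5-fluorouracil and 2 paclitaxel libraries, and none of the cisplatin libraries. The mitochondrially encoded genes took a median of 2.58% of expression in the 19 libraries and 10.5% in the other 54. Estimated counts per library ran from 11.4 M to 40.5 M (median 22.5 M, where M is the prefix mega), and all 10 markers of skeletal muscle fibres were measured in every group.

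The 39 genes are poor in GC. Their median transcript GC content was 44.8%, against 51.04% over all genes, and 31 of 39 lay under the median of all genes. Among libraries above a slope of 0.1 the median log2 value of the 39 genes ran from 5.44 to 5.84 (median 5.57), and among the other 54 libraries from 5.63 to 6.15 (median 5.88). The 2 ranges overlapped between 5.63 and 5.84.

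**Figure D1:**
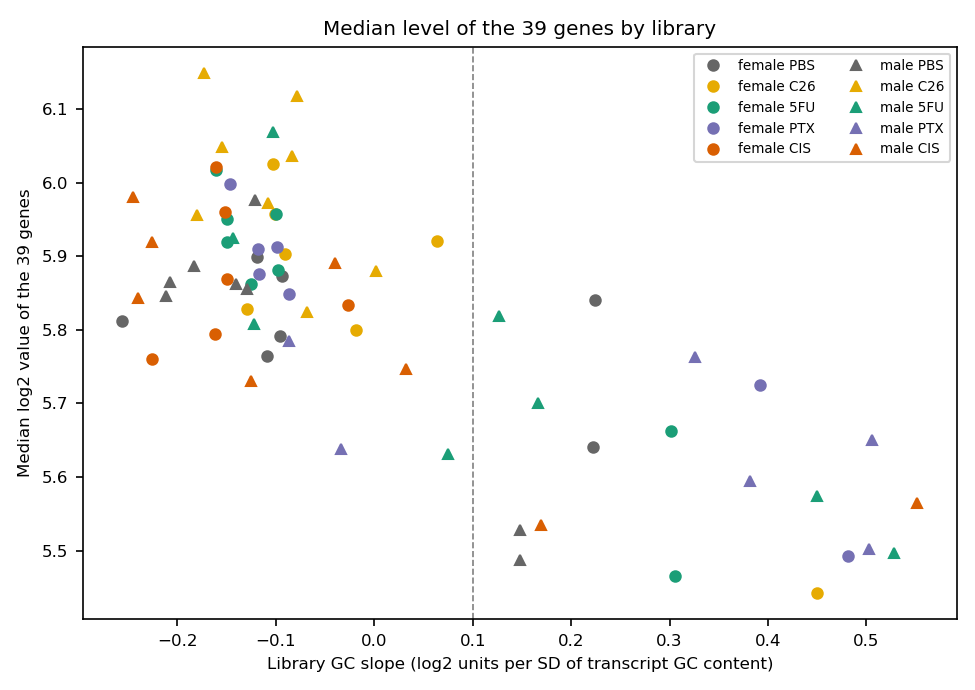
Median log2 value of the 39 genes (vertical axis) against the GC slope of each library (horizontal axis), 1 point per library, with colour for the treatment, circles for females and triangles for males. The dashed line marks a slope of 0.1, and the 19 libraries to its right have member medians of 5.44 to 5.84.

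When the slope was added to the group means in limma, the coefficient on it passed an adjusted p of 0.05 for 37 of 39 members, 8 with higher and 29 with lower values at a higher slope. Over all genes 75.3% passed, 37.5% higher and 37.8% lower. The most negative coefficients, in log2 units per unit of slope, were those of Hnrnpa2b1 (-2.06 ± 0.08, SE), whose product binds RNAs for transport as well as splicing, Srsf10 (-1.91 ± 0.13), an SR protein that represses splicing when dephosphorylated, and Clk1 (-1.89 ± 0.25). The most positive were those of Hnrnpa0 (0.99), Clk2 (0.97) and Srsf4 (0.95). Across the 39 genes the coefficient followed GC content (Pearson's r = 0.825, Spearman's rho = 0.736), as it did across 13752 other genes (r = 0.735, rho = 0.825). These points share their libraries, and the slope was built from GC content, so the correlations are a description. The origin of the slope was not tested. The counts of called members and other splicing genes in males below are given with and without it.

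**Figure D2:**
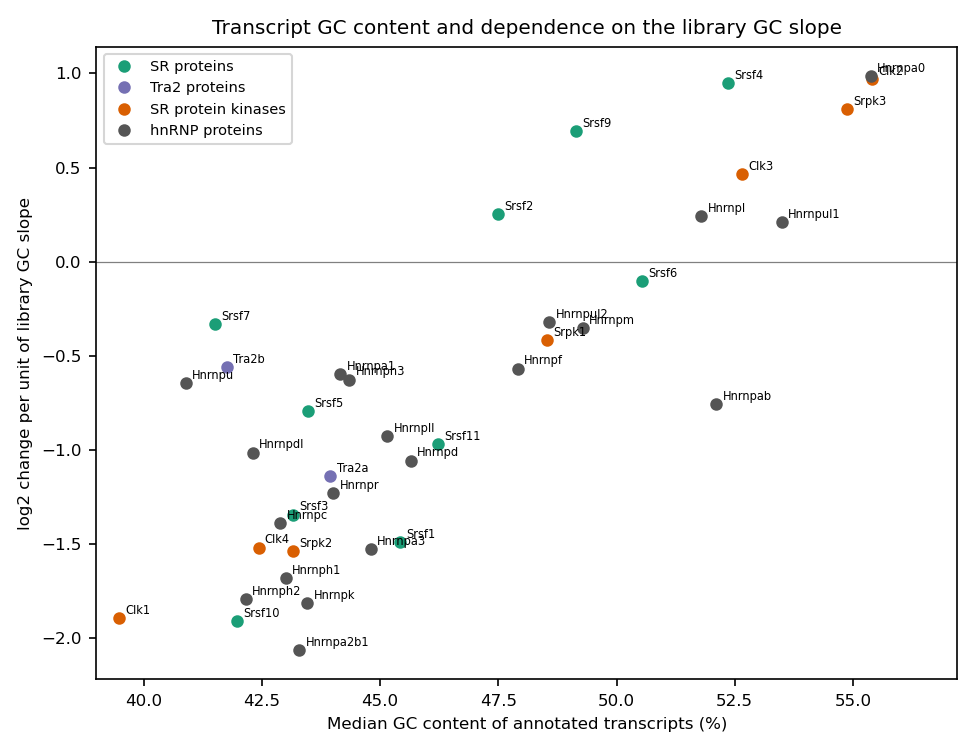
Transcript GC content in percent (horizontal axis) against the log2 change per unit of library GC slope (vertical axis), 1 point per gene, coloured by role. Genes under 47% GC all have coefficients below 0, with Hnrnpa2b1 the lowest at -2.06, and Hnrnpa0 and Clk2 are the highest.

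Levels between genes were compared per kilobase of the median annotated transcript. On that log2 scale Hnrnpk (7.58), Hnrnpu (7.35) and Hnrnpa2b1 (7.27) were the highest of the 39 genes and Tra2a (3.59), Srsf9 (2.94) and Hnrnpll (2.73) the lowest. The annotated length need not be that of the main muscle transcript, so the ranks depend on the annotation. All 39 genes were above a count of 0 in all 73 libraries. Hnrnpa1 and Hnrnpa3 are known to have processed pseudogenes and Hnrnph1 and Hnrnph2 are close paralogs. How reads shared between such copies were divided is not given in the sources used here.

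Promoter windows of RefSeq genes (GRCm38.p6, 250 bases before to 50 after the start) were found for 36 of the 39 genes. The windows of 3 genes whose calls recur below, one kinase, one SR protein and one hnRNP, are printed 5′ to 3′ on the strand of the gene. Capitals mark matches on either strand to CCAAT, to GGGCGG (a GC box), to TTCNNNGAA (a STAT-type site) or to TATAAA. They lie at chr17:28622472-28622771 on the minus strand for Srpk1, chr17:80207256-80207555 on the minus strand for Srsf7 and chrX:134600929-134601228 on the plus strand for Hnrnph2.
Srpk1: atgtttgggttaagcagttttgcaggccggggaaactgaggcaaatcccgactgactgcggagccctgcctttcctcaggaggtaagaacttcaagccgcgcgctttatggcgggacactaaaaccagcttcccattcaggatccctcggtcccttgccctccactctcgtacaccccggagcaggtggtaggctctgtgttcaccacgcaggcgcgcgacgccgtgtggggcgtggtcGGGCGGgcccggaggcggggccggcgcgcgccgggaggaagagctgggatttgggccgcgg
Srsf7: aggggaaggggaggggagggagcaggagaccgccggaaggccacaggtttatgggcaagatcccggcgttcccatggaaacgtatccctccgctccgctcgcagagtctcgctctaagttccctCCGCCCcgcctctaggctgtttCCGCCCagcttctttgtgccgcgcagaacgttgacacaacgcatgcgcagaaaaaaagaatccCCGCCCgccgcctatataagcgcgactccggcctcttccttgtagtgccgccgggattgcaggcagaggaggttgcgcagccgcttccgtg
Hnrnph2: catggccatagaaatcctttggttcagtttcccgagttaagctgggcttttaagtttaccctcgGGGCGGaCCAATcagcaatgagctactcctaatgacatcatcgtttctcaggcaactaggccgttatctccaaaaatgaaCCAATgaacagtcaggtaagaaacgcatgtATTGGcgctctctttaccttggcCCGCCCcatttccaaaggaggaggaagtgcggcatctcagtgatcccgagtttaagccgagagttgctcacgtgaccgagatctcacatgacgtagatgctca
Srpk1 has 1 GC box, Srsf7 has 3, and Hnrnph2 has 2 GC boxes and 3 CCAAT matches. The GC box was found in 80.0% of the 50 windows of member genes and in 35.7% of all 32851 windows. The latter were not limited to genes with expression values here. CCAAT was found in 48.0% and 37.4%, the STAT-type site in 8.0% and 8.3% and TATAAA in 12.0% and 13.6%. The member windows had a median GC content of 65.2% against 52.7%, although their transcripts are GC-poor. A match is a description of the letters and not of a bound site.

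The first comparison asked what the tumour did to these genes in males. Of 39 members, 10 rose and 1 fell in C26 saline against PBS males (limma, adjusted p under 0.05 over all genes), where 26.1% of all genes were called, 13.1% higher and 13.0% lower. The risers were 7 hnRNP genes, the kinases Srpk1 and Clk4, and the SR protein gene Srsf7, and the gene that fell was the kinase Srpk2. The median change of the 39 genes was 0.22 on the log2 scale, against 0.00 over all genes. In bulk muscle, more RNA per cell and more cells of a kind cannot be told apart.

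Among the SR proteins only Srsf7 passed the test. It is a splicing and polyadenylation regulator that also takes part in RNA export. Its log2 values ran from 4.77 to 5.14 (median 4.94) in PBS males and from 5.03 to 5.78 (median 5.38) in C26 saline males. The groups overlapped, but all 8 tumour libraries lay above the PBS mean. The rise was 0.40 ± 0.09 (SE; limma adjusted p = 0.000249), a fold of 1.32. With the smooth GC correction, which removes a curve in GC content from each library, it was 0.36 and no longer passed (limma adjusted p = 0.0981). The other 9 SR genes had changes of 0.02 (Srsf6) to 0.30 (Srsf10), none called, and neither Tra2a (0.17) nor Tra2b (-0.02) passed.

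The kinases moved in both directions. Srpk1 ran from 4.22 to 4.61 (median 4.36) in PBS and from 4.22 to 4.79 (median 4.61) in tumour-bearing males, and rose by 0.24 ± 0.08 (limma adjusted p = 0.0179). A single tumour library, at 4.22, lay as low as the lowest PBS library, while the other 7 were above the PBS mean. Clk4, a nuclear kinase of SR proteins, ran from 4.74 to 5.49 (median 5.24) in PBS and from 5.22 to 5.93 (median 5.74) with the tumour, a rise of 0.50 ± 0.19 (limma adjusted p = 0.0462). The Clk4 call was lost on leaving out any of 10 of the 16 libraries (lowest value 0.43, adjusted p = 0.103, without male PBS replicate 4).

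Srpk2 went the other way. Its values were 4.44 to 5.06 (median 4.91) in PBS males and 4.08 to 4.53 (median 4.29) in C26 saline males. The 2 lowest PBS libraries, both above a GC slope of 0.1, were the ones that reached into the tumour range, as the plot of Srpk2 by library shows. Srpk2 fell by 0.50 ± 0.18 (limma adjusted p = 0.0262), with all 8 tumour libraries below the PBS mean, and with the slope as a covariate by 0.53 ± 0.08 (adjusted p = 4.11e-07). The call was lost without male PBS replicate 3 or male C26 replicate 3 (-0.47, adjusted p = 0.0524, for the latter). Clk1 had a change of 0.63 ± 0.28 and Srpk3, the muscle-enriched SRPK kinase, one of -0.27 ± 0.13. Neither was called without the covariate, and both were with it (adjusted p = 0.0161 and 0.0397).

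The hnRNP genes, 20 of the 39 members, held most of the 11 calls, where 26.1% of all genes were called. Hnrnpf, which binds runs of G and regulates alternative exons and polyadenylation, had values of 5.67 to 6.11 (median 5.98) in PBS males and 6.09 to 6.96 (median 6.48) in tumour-bearing males. The groups touched at their edges, and all 8 tumour libraries were above the PBS mean. The rise was 0.58 ± 0.11 (limma adjusted p = 2.61e-05). Hnrnpu, a scaffold protein of chromatin and the nuclear matrix, rose by 0.62 ± 0.13 (limma adjusted p = 0.00014), from 6.67 to 7.19 (median 7.11) in PBS to 7.10 to 8.05 (median 7.70).

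In 2 of 39 members the groups did not overlap, against 2.74% of all genes that were higher without overlap. They were Hnrnpa1, a repressor of exon inclusion, and Hnrnph2, a paralog of Hnrnpf. Hnrnpa1 was 6.66 to 7.19 (median 6.95) in PBS and 7.28 to 7.76 (median 7.42) in C26 saline males, a rise of 0.54 ± 0.13 (limma adjusted p = 0.000571). Hnrnph2 was 4.80 to 5.54 (median 5.40) and 5.57 to 6.20 (median 5.90), a rise of 0.55 ± 0.19 (limma adjusted p = 0.026). Leaving out male PBS replicate 2 or 4 or male C26 replicate 1 took the Hnrnph2 call away (0.48, adjusted p = 0.0685, without PBS replicate 4). Hnrnph3 (0.39), Hnrnpul1 (0.26) and Hnrnpul2 (0.22) also rose, and the other 13 hnRNP genes had changes of -0.004 (Hnrnpl) to 0.32 (Hnrnpa3), and none of these passed.

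With the GC slope added to the fit as a covariate, all 11 calls of the male tumour comparison were kept and 25 of 39 members were called, 23 higher and 2 lower, where 40.6% of all genes passed (21.2% higher, 19.5% lower). The smooth correction kept 10 of the 11 and made 18 calls (35.6% of all genes), and leaving out the libraries above a slope of 0.1 kept all 11 (36.4% of all genes). The median change of the members was 0.21 with the covariate, near the 0.22 without it.

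**Figure D3:**
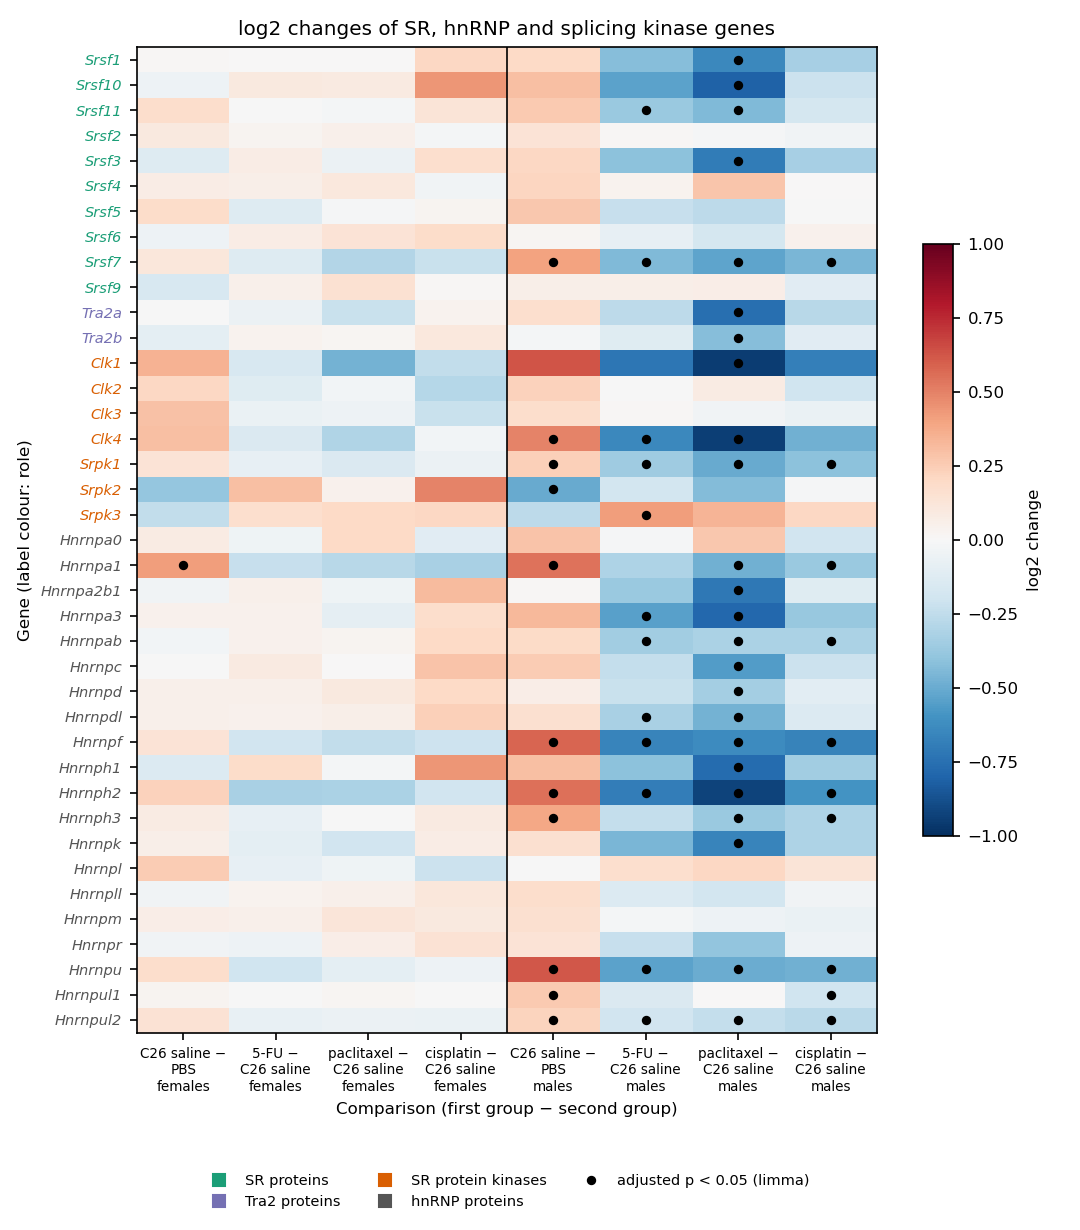
log2 changes of the 39 genes (rows, label colour by role) in the 8 comparisons (columns, females left, males right), from -1 in blue to 1 in red, with black dots where the adjusted p is under 0.05 in limma. Dots mark 10 rises and 1 fall in the male tumour column, 12, 24 and 10 calls in the male drug columns, and 1 in the female columns.

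In females the same comparison called 1 of 39 members, where 6.7% of all genes were called (4.14% higher, 2.56% lower). It was Hnrnpa1, with values of 6.61 to 7.29 (median 6.99) in PBS and 6.75 to 7.73 (median 7.41) in C26 saline females. The groups overlapped widely, with 6 of 7 tumour libraries above the PBS mean. Hnrnpa1 rose by 0.42 ± 0.13 (limma adjusted p = 0.0441), and leaving out any of 10 of the 14 libraries ended the call (0.36, adjusted p = 0.148, without female C26 replicate 6). The member median was 0.06 against -0.01 over all genes. With the slope as a covariate 6 members were called (13.9% of all genes, 7.8% higher and 6.12% lower): Hnrnpa1 (0.44), Clk4 (0.36), Hnrnph2 (0.30), Clk3 (0.27) and Srsf11 (0.22) higher, and Srpk2 (-0.32) lower.

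The difference of the tumour change between sexes, males minus females, was called for 0 of 39 members in limma, and for 0.0361% of all genes (0.0144% higher, 0.0217% lower). At an unadjusted p under 0.05 there were 4 members (10.3%), against 8.17% of all genes. The smallest p was that of Hnrnpf, at 0.45 ± 0.16 (limma adjusted p = 0.333). The male and female results therefore were not shown to differ for any member.

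Each drug was then compared with C26 saline. These comparisons share the C26 saline libraries with the tumour comparison and with each other, so a low or high C26 saline library moves all of them, and their values are set side by side without a test between them. In males, 5-fluorouracil, a pyrimidine analogue that also enters RNA, came with 11 members lower and 1 higher, against 12.0% lower and 11.3% higher over all genes (23.3% in all). Paclitaxel, which stabilises microtubules, came with 24 lower and 0 higher, against 18.5% and 13.5% (31.9% in all). Cisplatin, which crosslinks DNA, came with 10 lower and 0 higher, against 8.23% and 7.66% (15.9% in all). The median change of the 39 genes was -0.24, -0.44 and -0.20 in that order, and that of all genes -0.03, 0.00 and -0.04.

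The scaling of the libraries bears on these directions. With plain library-size scaling in place of the authors' scaling, the median of all genes moved by 0.11 in the male tumour comparison and by -0.18, -0.17 and -0.16 with 5-fluorouracil, paclitaxel and cisplatin. The distance of the member median from the median of all genes stayed at 0.21, -0.21, -0.43 and -0.16 by construction. Under plain scaling 2549 genes were higher and 1198 lower with the tumour, and 774 and 3325, 873 and 3598, and 563 and 2453 with the drugs, against 1811 and 1806, 1564 and 1669, 1864 and 2560, and 1062 and 1141 under the authors' scaling.

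Hnrnpf fell with every drug in males. Against 6.09 to 6.96 in C26 saline, its values were 5.496 to 6.08 (median 5.90) with 5-fluorouracil, 5.502 to 6.38 (median 5.87) with paclitaxel and 5.62 to 6.03 (median 5.90) with cisplatin. Only 1 paclitaxel library reached into the C26 saline range, and the 5-fluorouracil and cisplatin libraries did not. It fell by 0.66 ± 0.11, 0.63 ± 0.12 and 0.66 ± 0.11 (limma adjusted p = 1.39e-05, 0.000463 and 1.19e-05). With the slope as a covariate the changes were -0.53, -0.42 and -0.61 (adjusted p = 4.25e-05, 0.0217 and 1.31e-06), and the calls held with the smooth correction and without the libraries above a slope of 0.1. Hnrnpf was the only member for which all 3 drug calls held in all 3 of these settings.

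Srpk1 was 4.22 to 4.79 in C26 saline males, 3.97 to 4.46 (median 4.25) with 5-fluorouracil, 3.84 to 4.37 (median 4.13) with paclitaxel and 3.77 to 4.58 (median 4.19) with cisplatin. All 22 drug-treated libraries lay below the C26 saline mean, although the ranges overlapped. It fell by 0.36 ± 0.08, 0.50 ± 0.09 and 0.41 ± 0.08 (limma adjusted p = 0.000793, 0.000401 and 0.000143). With the covariate the changes were -0.26, -0.35 and -0.37, all called, and without the high-slope libraries the paclitaxel change was -0.33 and did not pass (adjusted p = 0.0512).

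Srsf7 was 5.03 to 5.78 in C26 saline males, 4.66 to 5.06 (median 4.95) with 5-fluorouracil, 4.66 to 4.96 (median 4.84) with paclitaxel and 4.55 to 5.18 (median 4.90) with cisplatin. No paclitaxel library reached the C26 saline range. It fell by 0.44 ± 0.09, 0.53 ± 0.09 and 0.46 ± 0.09 (limma adjusted p = 0.000159, 0.000401 and 9.33e-05). The 3 calls held with the covariate (-0.37, -0.40 and -0.43) and without the high-slope libraries, but none held with the smooth correction (-0.01, 0.17 and -0.27, adjusted p = 0.975, 0.603 and 0.266). Srsf7 has a transcript GC content of 41.5% and a slope coefficient of -0.33.

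**Figure D4:**
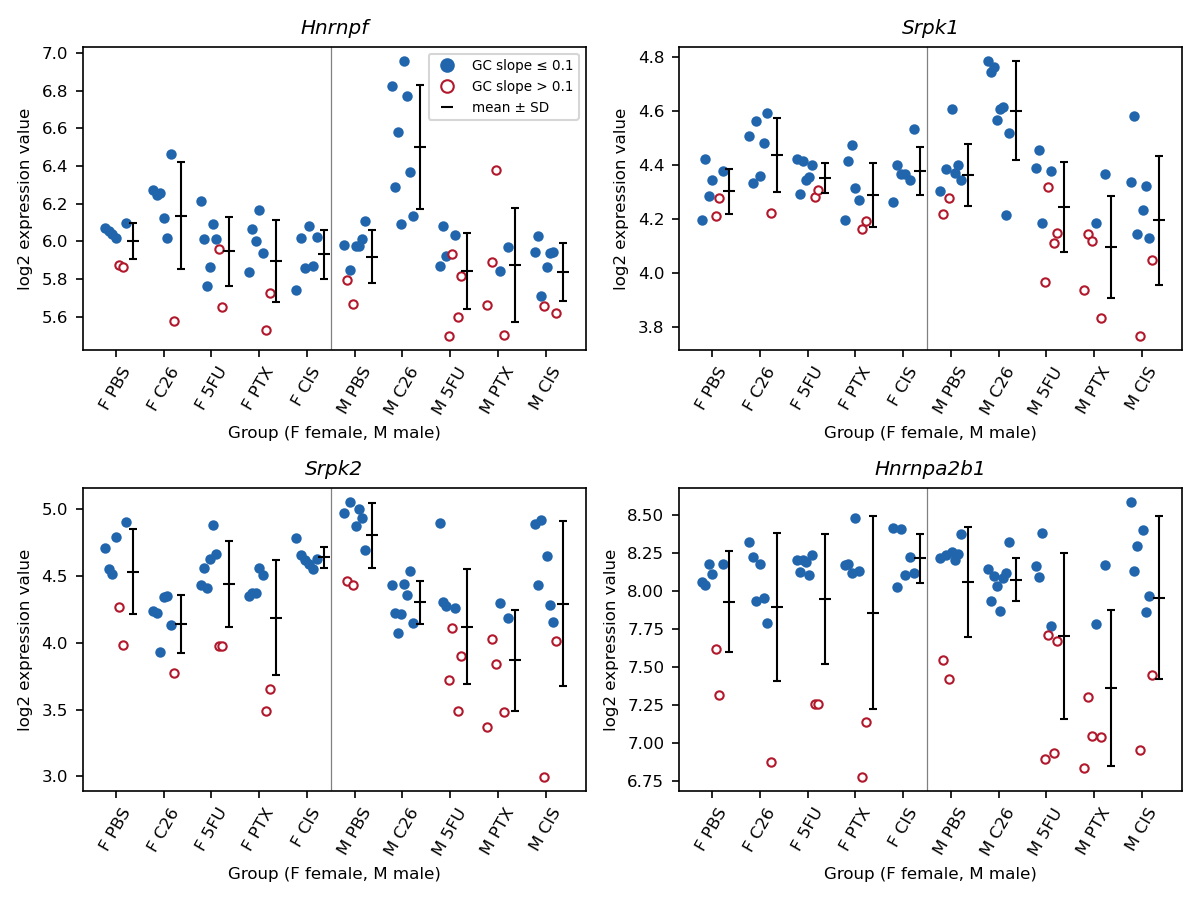
log2 expression values of Hnrnpf, Srpk1, Srpk2 and Hnrnpa2b1 in each library (points) by group, with the mean and SD beside them; open red points are libraries with a GC slope above 0.1. Hnrnpf and Srpk1 are highest in C26 saline males, while for Srpk2 and Hnrnpa2b1 the open points are the lowest ones of each group that holds any.

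Hnrnpu and Hnrnph2 were also lower with all 3 drugs. Hnrnpu was 6.90 to 7.42 (median 7.04), 6.84 to 7.49 (median 7.07) and 6.67 to 7.51 (median 7.25), and fell by 0.53, 0.49 and 0.48 (limma adjusted p = 0.00189, 0.00699 and 0.00609). Hnrnph2 was 4.56 to 5.71 (median 5.23), 4.19 to 5.65 (median 5.01) and 4.20 to 5.65 (median 5.47), and fell by 0.69, 0.92 and 0.60 (limma adjusted p = 0.00736, 0.00185 and 0.0249). Both overlapped the C26 saline range in every comparison. With the covariate the paclitaxel changes were -0.26 for both genes and neither was called (adjusted p = 0.254 and 0.0574), while the 5-fluorouracil and cisplatin calls were kept. With the smooth correction no drug call of Hnrnpu held (-0.07, 0.25 and -0.28), and all 3 of Hnrnph2 did. The Hnrnph2 call with cisplatin was lost without male C26 replicate 1 or male cisplatin replicate 4 or 8 (-0.44, adjusted p = 0.101, without cisplatin replicate 4).

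Srpk3, a kinase found mostly in muscle, was the only member called higher with a drug in males. It was 4.82 to 5.82 (median 5.29) in C26 saline males and 5.39 to 5.96 (median 5.60) with 5-fluorouracil, a rise of 0.42 ± 0.13 (limma adjusted p = 0.0155), with all 8 drug libraries above the C26 saline mean. With the covariate it was 0.23 and not called (adjusted p = 0.0976), and it was not called without male C26 replicate 1 (0.36, adjusted p = 0.0521). Its change was 0.34 with paclitaxel and 0.21 with cisplatin, neither called. Srpk2 had changes of -0.18, -0.43 and -0.01, none called.

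The remaining 5-fluorouracil calls were Clk4 (-0.65), Hnrnpa3 (-0.54), Srsf11 (-0.37), Hnrnpab (-0.35), Hnrnpdl (-0.32) and Hnrnpul2 (-0.19). Of these, Hnrnpa3 alone was also called with the covariate, at -0.19 (adjusted p = 0.02), and its call without it was lost on leaving out male 5-fluorouracil replicate 4 (-0.46, adjusted p = 0.0518). Hnrnpab was not called without male C26 replicate 1 or 5 (-0.28, adjusted p = 0.064, for the former). Hnrnpdl lost its call without any of 8 of the 16 libraries (-0.27, adjusted p = 0.117, without male 5-fluorouracil replicate 4) and Hnrnpul2 without any of 6 (-0.16, adjusted p = 0.093, without male C26 replicate 5). In all, 6 of the 12 calls were kept with the covariate, which called 9 members (22.0% of all genes), 7 with the smooth correction and 6 without the high-slope libraries. Hnrnpf, Hnrnph2 and Srpk1 were kept in all 3. The member median went from -0.24 to -0.10 with the covariate and to -0.05 with the smooth correction. Over all genes it was -0.02 and -0.008 in these settings.

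Paclitaxel had the largest count and the largest share of high-slope libraries. Its 24 falls took in 5 of 10 SR genes, both Tra2 genes, 3 of 7 kinases and 14 of 20 hnRNP genes. Clk4 was 5.22 to 5.93 in C26 saline and 3.93 to 5.15 (median 4.98) with paclitaxel, with no overlap, and fell by 0.94 ± 0.21 (limma adjusted p = 0.00147). Hnrnpa3, a shuttling RNA-binding protein, was 6.501 to 7.01 and 5.61 to 6.31, also without overlap, and fell by 0.79 ± 0.18 (limma adjusted p = 0.00191). With Srsf7 and Hnrnph1 this made 4 of 39 members lower without overlap, against 1.16% of all genes. Of these 4, only Srsf7 was also called with the covariate.

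Among the SR genes Srsf3, which promotes exon inclusion and RNA export, fell by 0.70 ± 0.17 (limma adjusted p = 0.00293), from 5.56 to 6.19 in C26 saline to 4.601 to 5.71 (median 5.44). Srsf1, the prototype SR protein, fell by 0.65 ± 0.18 (limma adjusted p = 0.00653) and Srsf10 by 0.81 ± 0.24. Tra2a and Tra2b, which activate exons through GA-rich enhancers, fell by 0.75 ± 0.16 and 0.43 ± 0.11 (limma adjusted p = 0.00138 and 0.00332). Clk1, whose own splicing responds to its activity, fell by 0.95 ± 0.30 (limma adjusted p = 0.0146), and the call was lost without male paclitaxel replicate 1 or 5 (-0.72, adjusted p = 0.085, for replicate 1). None of the falls named in this paragraph was called with the covariate. Among them only that of Srsf1 held with the smooth correction, where Tra2b was at 0.248 and not called. Only that of Srsf3 held without the high-slope libraries.

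Hnrnpa2b1 and Hnrnpk, a binder of C-rich RNA, were among the falls that the covariate took away. Hnrnpa2b1 was 7.87 to 8.33 in C26 saline males and 6.84 to 8.17 (median 7.18) with paclitaxel, and fell by 0.71 ± 0.24 (limma adjusted p = 0.0176). The 4 paclitaxel libraries above a slope of 0.1 were its 4 lowest. Without male paclitaxel replicate 1 or 5 neither gene was called (-0.61 and -0.52, adjusted p = 0.0686 and 0.0808, without replicate 1). With the covariate its change was 0.05 ± 0.07, and that of Hnrnpk went from -0.66 ± 0.21 to 0.02 ± 0.09. Both changes with the covariate lay within 1 SE of 0, so the fall was gone and no opposite change was shown.

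Over the 39 genes, the covariate kept 3 of the 24 paclitaxel calls (Hnrnpf, Srpk1 and Srsf7) and called 4 members (3.48% of all genes), the fourth being Clk2, at -0.28 ± 0.09 (adjusted p = 0.0479). The smooth correction kept 5 (12.1% of all genes called) and the fit without the high-slope libraries 7, with 2 paclitaxel libraries left (5.21% of all genes called). The member median went from -0.44 to -0.10 with the covariate, against -0.02 over all genes. The 8 C26 saline libraries had slopes of -0.18 to 0.0016 and 4 of the 6 paclitaxel libraries lay above 0.1, so slope and treatment cannot be fully told apart here.

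**Figure D5:**
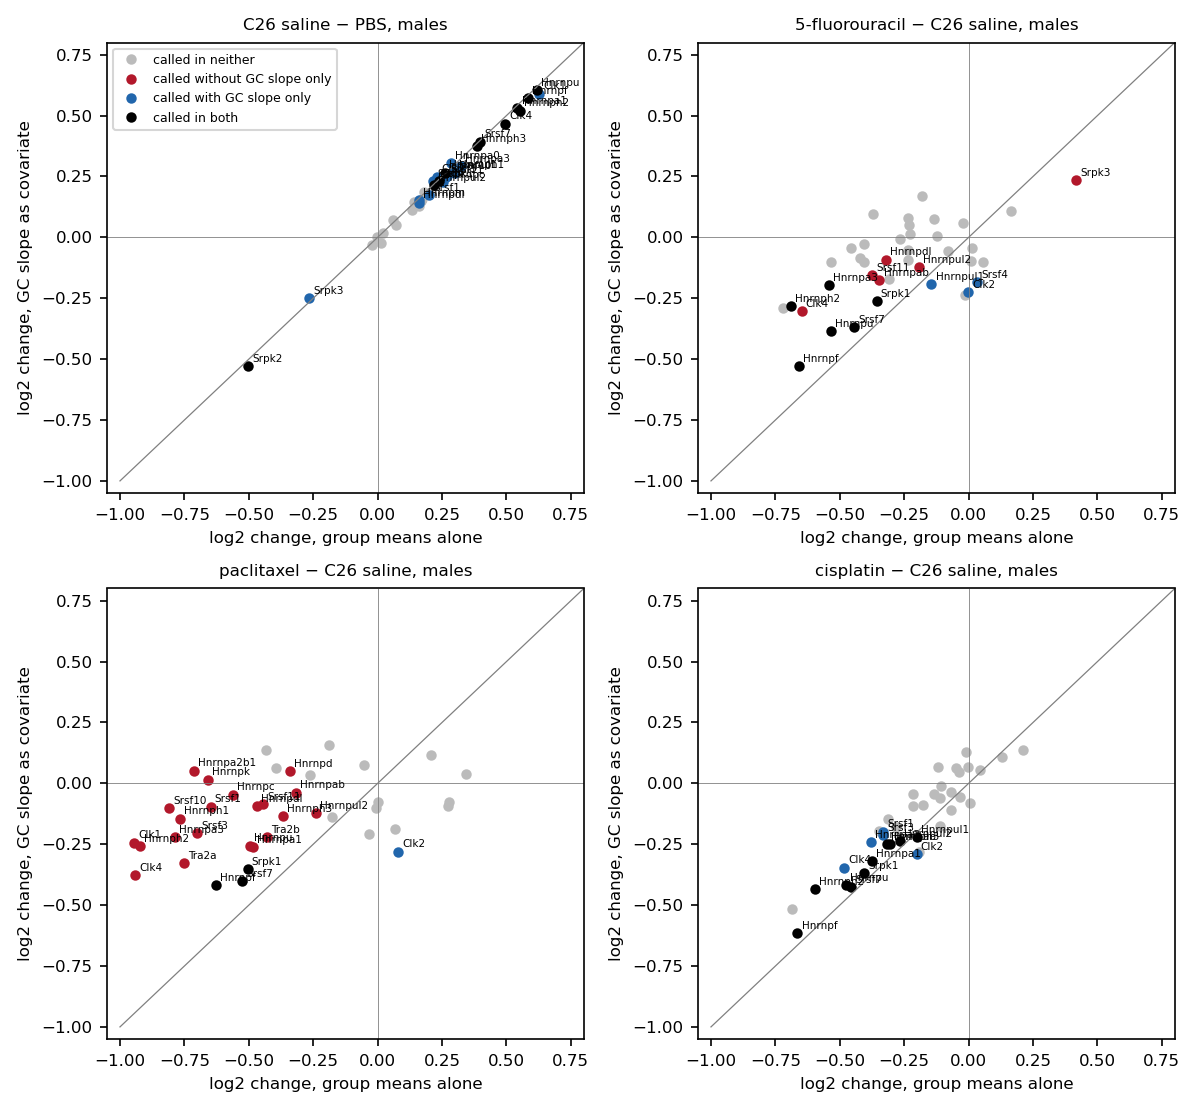
log2 change of each of the 39 genes from group means alone (horizontal axis) and with the library GC slope as a covariate (vertical axis) in the 4 male comparisons; colours give the setting in which the gene was called in limma, and the diagonal marks equal values. Points lie on the diagonal in the tumour comparison and move toward 0 in the paclitaxel comparison, where Hnrnpf, Srpk1 and Srsf7 are called in both settings.

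With cisplatin in males the calls were Hnrnpf, Hnrnph2, Hnrnpu, Srsf7, Srpk1, Hnrnpa1 (-0.37), Hnrnpab (-0.32), Hnrnph3 (-0.31), Hnrnpul2 (-0.27) and Hnrnpul1 (-0.20). Hnrnpa1 was 7.28 to 7.76 in C26 saline and 6.68 to 7.25 (median 7.18) with cisplatin, without overlap, as was Hnrnpf, which made 2 of 39 against 0.419% of all genes. The Hnrnpa1 call was lost without male C26 replicate 1, 3 or 6 or male cisplatin replicate 8 (-0.32, adjusted p = 0.0924, for the last). Hnrnph3 was not called without any of 12 of the 16 libraries (-0.28, adjusted p = 0.0973, without male C26 replicate 1), Hnrnpab without any of 7 (-0.25, adjusted p = 0.13, without the same library) and Hnrnpul1 without any of 6 (-0.16, adjusted p = 0.116, without male C26 replicate 5). All 10 calls were kept with the covariate, which called 15 members, all lower (28.6% of all genes, 15.8% lower). The smooth correction kept 5 (Hnrnpf, Hnrnph2, Hnrnpul1, Hnrnpul2 and Srpk1) and leaving out the high-slope libraries kept 9. The member median went from -0.20 to -0.18 with the covariate and to -0.14 with the smooth correction. Over all genes it was -0.03 and -0.004 in these settings. The count was 5 without male C26 replicate 1 and 6 without male C26 replicate 6 or male cisplatin replicate 8.

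In females no drug called a member in limma. Over all genes 1.35% were called with 5-fluorouracil (0.152% higher, 1.2% lower), 0.0% with paclitaxel and 1.66% with cisplatin (0.346% higher, 1.31% lower). At an unadjusted p under 0.05 the members were 0, 3 and 6 of 39, against 10.0%, 6.1% and 18.0% of all genes. The 3 with paclitaxel were Srsf7 (-0.29), Hnrnpa1 (-0.27) and Hnrnpf (-0.24), each far from an adjusted p of 0.05 (limma adjusted p = 0.514, 0.807 and 0.799). With the covariate Hnrnph2 was lower with 5-fluorouracil (-0.38 ± 0.07, limma adjusted p = 0.000527; 3.04% of all genes called, 0.931% higher and 2.11% lower) and with cisplatin (-0.47 ± 0.08, adjusted p = 0.000424), and Hnrnpa1 with cisplatin (-0.42 ± 0.12, adjusted p = 0.0429; 3.1% of all genes called, 1.18% higher and 1.93% lower).

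The drug changes were not shown to differ between sexes for any member. Limma called 0 of 39 members and 0.0% of all genes in each of the 3 interactions. At an unadjusted p under 0.05 the members were 10, 20 and 13 of 39 for 5-fluorouracil, paclitaxel and cisplatin (25.6%, 51.3% and 33.3%), against 14.8%, 19.5% and 14.4% of all genes. Hnrnpf, for example, had a male minus female difference of -0.47 ± 0.16 with 5-fluorouracil (limma adjusted p = 0.325) and -0.46 ± 0.16 with cisplatin (adjusted p = 0.238). With library quality weights 3, 22 and 1 members were called, where 3.29%, 26.8% and 2.56% of all genes were. The 22 members with paclitaxel are 56.4% of the 39.

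Other genes of splicing were read from 3 lists. The counts of each are to be read beside the shares of all genes called in males. These were 26.1%, 23.3%, 31.9% and 15.9% with the tumour, 5-fluorouracil, paclitaxel and cisplatin. With the covariate they were 40.6%, 22.0%, 3.48% and 28.6%. Of 30 genes of nuclear speckles and SR-related proteins, 10 rose and 0 fell with the tumour in males, and 0 and 15, 2 and 21, and 0 and 4 with 5-fluorouracil, paclitaxel and cisplatin. Their median changes were 0.24, -0.32, -0.46 and -0.20 in that order. Srrm1, a coactivator that bridges SR proteins, rose by 0.43 with the tumour, and Bclaf1 fell by 1.24 with paclitaxel (limma adjusted p = 0.000291 and 0.00174). With the covariate the counts were 20 and 1, 0 and 7, 0 and 1, and 0 and 9, and 22 of the 30 genes had negative slope coefficients that passed, like 29 of the 39 members. Rbm5 was the gene still lower with paclitaxel in that setting (-0.31, limma adjusted p = 0.0471). With the smooth correction 0 were higher and 8 lower with paclitaxel (12.1% of all genes called). Without the high-slope libraries these counts were 0 and 4 (5.21% of all genes called).

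The 40 core spliceosome genes were mixed in direction. In males 5 rose and 3 fell with the tumour, 4 and 7 with 5-fluorouracil, 6 and 12 with paclitaxel and 1 and 2 with cisplatin, with median changes of 0.14, -0.10, -0.04 and -0.09. With the covariate the counts were 13 and 5, 4 and 4, 0 and 0, and 2 and 10, so no paclitaxel call was left in that setting. The paclitaxel counts were 4 and 2 with the smooth correction and 0 and 0 without the high-slope libraries. Snrnp200, the helicase that unwinds U4 from U6, rose with the tumour by 0.56 in males and 0.41 in females (limma adjusted p = 4.78e-06 and 0.00635). Of 36 other regulators of alternative splicing, 8 rose and 1 fell with the tumour in males, and 1 and 7, 3 and 16, and 1 and 2 with the drugs, with medians of 0.15, -0.20, -0.29 and -0.15. With the covariate they were 15 and 2 with the tumour and 1 and 3, 1 and 0, and 1 and 4 with the drugs. None of the 16 paclitaxel falls was left in that setting. With the smooth correction 2 were higher and 4 lower with paclitaxel, and without the high-slope libraries 0 and 1. Snrpn, a Sm protein, ran opposite to most members, at -0.64 with the tumour and 0.77, 0.45 and 0.61 with 5-fluorouracil, paclitaxel and cisplatin (limma adjusted p = 0.000125, 2.18e-05, 0.0141 and 0.000558).

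Markers of some other cell types moved with the same comparisons, and others were mixed. The marker counts are given without the GC slope. Over all genes 26.1%, 23.3%, 31.9% and 15.9% were called in males with the tumour, 5-fluorouracil, paclitaxel and cisplatin. The shares in females were 6.7%, 1.35%, 0.0% and 1.66%. Of 10 listed neutrophil markers 7 were measured. All 7 rose with the tumour in males, and 7, 0 and 7 fell with 5-fluorouracil, paclitaxel and cisplatin. Their summed level, in back-transformed units of the table, was 1.43 to 12.3 in PBS, 10.2 to 33.2 in C26 saline, 1.74 to 16.6, 7.76 to 32.7 and 1.3 to 12.4 with the drugs. Mmp8 was at 0 in 3 of 8, Retnlg and Cxcr2 each in 2 of 8 and Mmp9 and S100a8 each in 1 of 8 PBS males. Of 10 macrophage markers 8 rose with the tumour in males and 4, 1 and 3 fell with the drugs, with sums of 70.2 to 105 in PBS, 94.0 to 252 in C26 saline and 88.3 to 191, 126 to 283 and 89.5 to 176 with the drugs. Of 8 B cell markers 2 were measured, Ighm and Cd79b, with sums of 43.0 to 116 in PBS, 0.909 to 15.1 in C26 saline and 3.76 to 58.9, 1.34 to 74.3 and 5.76 to 59.1 with the drugs. Ighm, the heavy chain of immunoglobulin M, fell with the tumour in males by 5.46 (limma adjusted p = 2.31e-10). It rose by 3.44, 1.69 and 3.22 with 5-fluorouracil, paclitaxel and cisplatin (limma adjusted p = 2.74e-05, 0.0367 and 7.07e-05), while Cd79b was not called in males. With the slope as a covariate the paclitaxel change of Ighm was not called (1.695, limma adjusted p = 0.153). Its 5-fluorouracil and cisplatin rises were. Of the 10 muscle fibre markers 4 fell with the tumour and 4, 6 and 4 rose with the drugs. In females all measured neutrophil markers but Mmp9 were called higher with the tumour. All but Mmp8 were lower with 5-fluorouracil, none with paclitaxel, and Cxcr2 and S100a9 with cisplatin. Several of these values lay at the floor. Retnlg was at 0 in 4 of 7, Cxcr2 in 3 of 7 and Mmp8 in 2 of 7 PBS females. With 5-fluorouracil Retnlg, Cxcr2 and S100a8 were each at 0 in 3 of 8 females, and S100a9 in 1 of 8. Cxcr2 was at 0 in 3 of 6 cisplatin females. Endothelial markers were mixed with the tumour in males, with Vwf, Pecam1 and Cldn5 higher and Cdh5 and Kdr lower. So were fibroblast markers, with Pi16 and Pdgfra higher and Col1a1 lower. Of 6 genes listed as satellite cell markers, Des (0.67) and Cdh15 (0.83) were called higher with the tumour in males. Myf5 (0.25), Chodl (0.21), Vcam1 (0.08) and Pax7 (-0.53) were not called. Of 6 adipocyte markers Lep alone was called, lower (-2.87), and it was at 0 in 3 of 8 C26 saline males. Cidec (1.16), Cfd (1.03), Adipoq (0.61) and Fabp4 (0.42) lay above 0 and Plin1 (-0.40) below, none of them called. The part of these cells in the member changes was not tested.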

How the data were processed

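The authors deposited log2 expression values. The submitters' processing notes list the build mm39 (GRCm39) and, with no role or version, limma, edgeR, Salmon, fastp, MultiQC and FastQC. How libraries were scaled and low genes removed is not given in the sources used here. The authors' log2 values have the form of an estimated count plus a constant over a scaled library size. Solving for that size gave the depths, with 85.0 to 90.7% of values within 0.02 of a whole number. Count tests were not run. Of 75 labelled samples, 1 female PBS library was not analysed here, and 1 female library whose title names saline and treatment label 5-fluorouracil had no group, which left 73, 1 fewer than planned.

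limma 3.58.1 in R 4.3.3 (eBayes with a trend) fitted the means of 10 groups at once (63 residual degrees of freedom), two-sided, with Benjamini-Hochberg adjustment over 13856 genes and a threshold of 0.05. Transcript GC content came from GENCODE vM21 (GRCm38), which matched 13791 genes, so no coordinates of the table are given. A spline with 5 degrees of freedom in GC content gave the smooth correction. Counts of libraries beyond a mean refer to the mean of the second group named.

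Named genes were 12 fixed members, up to 6 called members per comparison, 3 extremes of slope and level, and up to 2 genes per other splicing list. The members, lists and tests were chosen with earlier results of these data known. Genes named from the settings with the GC slope, and the markers at 0, were chosen after their values were seen. The labels give groups the same replicate numbers without saying that a number marks a shared animal or batch. Same-numbered libraries deviated together in every pair (r = 0.156 to 0.8, 7 pairs) only for female paclitaxel against C26 saline. The median r there was 0.37, and it was 0.468 for female 5-fluorouracil, where 5 of 7 pairs were over 0.1. Other settings were quantile normalization, plain scaling, a pseudocount of 1, a mean log2 value of at least 1, quality weights, only the groups compared, a replicate block and leaving out each library. The fitting script was tested on simulated data. No 2 libraries agreed within counting noise (closest pair, male PBS replicates 2 and 4, mean chi-square 14.2 per gene).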

Additional observations from a re-analysis of the deposited data

Results flagged for a closer look

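Among 140 groups of values searched (12 genes, the GC slope and the median of the 39 genes, in 10 groups each), 15 had a library whose gap to the nearest other exceeded Dixon's 95% value. Chance marks about 1 in 20 groups. Female C26 saline replicate 7 accounted for 8, with a GC slope of 0.45 (next highest in its group 0.0632) and low log2 values of Srsf1 (5.43), Srsf3 (5.08), Tra2a (3.82), Tra2b (4.71), Hnrnpa2b1 (6.87) and Hnrnpk (6.42) and a median of the 39 genes of 5.44. Hnrnpk was at 6.20 in male cisplatin replicate 4, whose slope was 0.552. Hnrnpa1 was at 6.68 in male cisplatin replicate 8, whose slope was 0.17, and at 7.37, above its group, in female cisplatin replicate 4. Srpk1 was high in male PBS replicate 5 (4.61) and low in male C26 saline replicate 7 (4.22). Srsf1 was low in female cisplatin replicate 2 (6.13) and Srsf3 in male C26 saline replicate 2 (5.56). The libraries of these last 5 values had slopes between -0.18 and -0.0265.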

How the results depend on the processing

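The count of members called moved by over 1.5 times as follows, with the share of all genes called in the same setting beside it. In the female tumour comparison (1) it was 6 with the GC slope as a covariate (13.9%), 5 with the smooth correction (11.0%), 2 without the high-slope libraries (11.9%), 3 with quality weights (14.8%) and 0 with only the groups compared (7.02%). In female 5-fluorouracil (0) it was 1, 1, 2 and 1 under the first 4 of these (3.04%, 2.27%, 1.81% and 7.12%). In female cisplatin (0) it was 2, 2, 3, 8 and 1 under all 5 (3.1%, 3.27%, 6.54%, 16.8% and 4.82%). In the male tumour comparison (11) it was 25 with the covariate (40.6%) and 18 with the smooth correction (35.6%). In male 5-fluorouracil (12) it was 22 with plain scaling (29.6%) and 6 without the high-slope libraries (17.8%). In male paclitaxel (24) it was 4, 5 and 7 with the covariate, the smooth correction and without the high-slope libraries (3.48%, 12.1% and 5.21%). In male cisplatin (10) it was 16 with plain scaling (21.8%) and 5 with only the groups compared (7.42%). Quality weights gave 3, 22 and 1 in the interactions of 5-fluorouracil, paclitaxel and cisplatin (0 each), against 3.29%, 26.8% and 2.56%. The cause of these moves was not tested.

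Among called members, 10 had the opposite sign under some setting, and none of these values passed the test. In male paclitaxel they were Hnrnpd (0.0512), Hnrnpa2b1 (0.0525) and Hnrnpk (0.0154) with the covariate, Hnrnpk (0.0419) without the high-slope libraries, and 8 with the smooth correction: Hnrnpa1 (0.00202), Hnrnpc (0.023), Hnrnpd (0.0326), Hnrnpdl (0.162), Hnrnph3 (0.104), Hnrnpu (0.252), Srsf7 (0.171) and Tra2b (0.248). In male 5-fluorouracil it was Hnrnpdl (0.0721) with the smooth correction. Leaving out each library in turn gave 0 to 1 calls in the female tumour comparison, 9 to 12 in the male one, 9 to 19 with 5-fluorouracil (19 without male 5-fluorouracil replicate 2 or 3), 17 to 29 with paclitaxel, 5 to 11 with cisplatin, 36 to 38 for the slope, and 0 to 0 elsewhere. Whichever library was left out, 8 of 11, 7 of 12, 16 of 24 and 5 of 10 male calls were kept. The replicate block left the female paclitaxel count, the only one where every same-numbered pair deviated together, at 0. It moved no other count by over 1.5 times. At this depth no member was near a count of 0.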
